A study of Mus musculus with 8 samples.

Results

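T lymphocytes and natural killer (NK) cells were followed in the cerebral cortex through 10 marker genes chosen by symbol: Cd3e, Cd3d, Cd3g, Cd4, Cd8a, Cd8b1, Cd2, Nkg7, Gzmb and Ms4a4b. All 10 symbols were found once each among the 54752 genes of the count tables. The tables held 8 libraries of right cerebral cortex from adult male wild-type C57BL/6 mice (C57BL/6 J in the methods), 1 mouse per library, taken 3 weeks after surgery. In the 4 BCAS (bilateral carotid artery stenosis) mice, a microcoil had been wound around each common carotid artery to reduce blood flow to the brain, with the narrower coil on the right, so the sampled cortex lay on the more constricted side. The 4 sham mice underwent the same exposure of the arteries without coils. The count tables hold whole-tissue RNA, so more lymphocytes and more RNA per lymphocyte cannot be told apart.

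T lymphocytes recognise antigen through the T cell receptor, whose antigen-binding chains carry no signal of their own and depend on the CD3 chains for surface transport and signalling. The coreceptors CD4 and CD8 bind class II and class I major histocompatibility complex (MHC) molecules on the presenting cell and divide T cells into a helper and a cytotoxic arm. Cytotoxic T cells and NK cells kill target cells by releasing granules that hold perforin and granzymes. A healthy brain holds few lymphocytes, most of them at its borders and in vessels.

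The libraries contained 16759364 to 21794435 counted read pairs, so that 3 counts corresponded to 0.138 to 0.179 CPM (counts relative to library size, scaled by TMM library factors where levels are given). The cortex of sham mice gave almost no counts for 9 of the 10 markers, and Cd4 was the exception. In 3 of the 4 BCAS mice all 10 markers lay above every sham library, whereas the 4th animal, BCAS mouse 2, had low counts throughout. For 7 of the 10 genes all 4 BCAS libraries lay above all 4 sham libraries, a pattern found in 18.5% of the 17136 genes that passed the expression filter. Of the 7, only Cd8a and Ms4a4b were themselves among those filtered genes. The exceptions were Cd3d, Cd4 and Cd2, in each of which BCAS mouse 2 fell within the sham range.

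**Figure D1:**
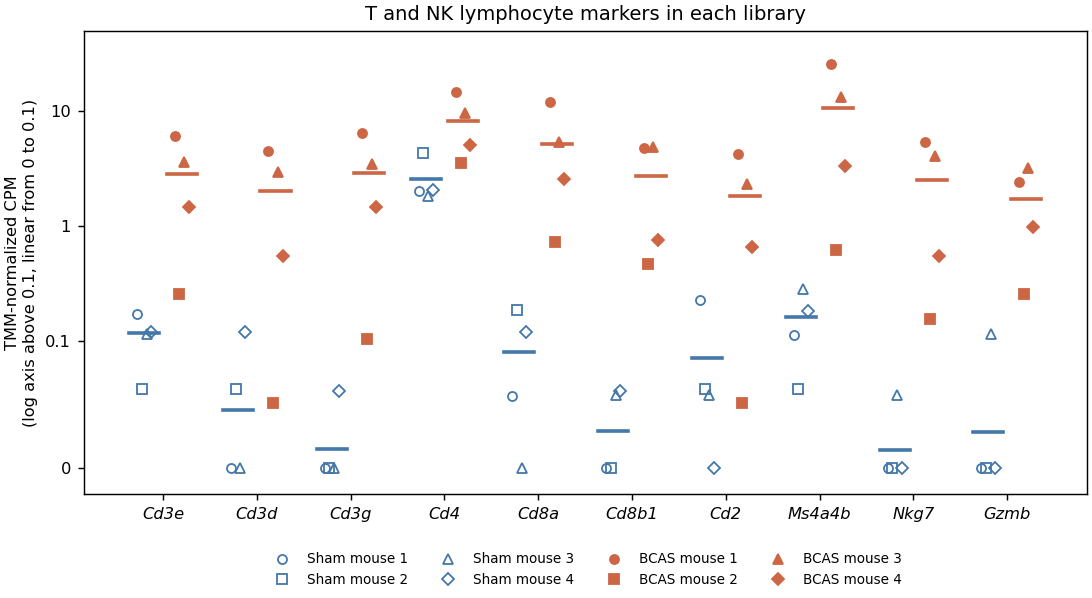
TMM-normalized CPM (y axis, logarithmic above 0.1 and linear from 0 to 0.1) of the 10 marker genes (x axis) in each library, with sham mice as open blue symbols and BCAS mice as filled orange symbols, the symbol shape giving the mouse number and the bars the group means (n = 4). Sham libraries lie close to 0 except for Cd4, and BCAS mouse 2 is the lowest BCAS library for all 10 genes.

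The 3 CD3 genes encode the epsilon, delta and gamma chains of the T cell receptor complex and lie together on chromosome 9 (mm10). Cd3g occupies chr9:44969572-44980431 on the minus strand, Cd3d chr9:44981786-44987339 on the plus strand and Cd3e chr9:44998740-45009627 on the minus strand. Cd3g and Cd3d point away from each other with 1354 bases between them, and 11400 bases separate Cd3d from Cd3e. The 250 bases upstream of the annotated starts of this divergent pair (RefSeq, GRCm38.p6) are shown because the genes share the interval and moved together. Cd3g covers chr9:44980432-44980681 and Cd3d chr9:44981536-44981785, each written 5′ to 3′ on its own strand, with capitals marking any RUNX core (TGTGGT) or interferon-gamma activated site (GAS, TTCNNNGAA), on either strand.
Cd3g: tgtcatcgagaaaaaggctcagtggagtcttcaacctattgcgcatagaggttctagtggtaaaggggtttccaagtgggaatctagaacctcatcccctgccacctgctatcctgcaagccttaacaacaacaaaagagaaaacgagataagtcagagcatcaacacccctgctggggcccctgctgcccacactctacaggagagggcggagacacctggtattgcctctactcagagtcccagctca
Cd3d: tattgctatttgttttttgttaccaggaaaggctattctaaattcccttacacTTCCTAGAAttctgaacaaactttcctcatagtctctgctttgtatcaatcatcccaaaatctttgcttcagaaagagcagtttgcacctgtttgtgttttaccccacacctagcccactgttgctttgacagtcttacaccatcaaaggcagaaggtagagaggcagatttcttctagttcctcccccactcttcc
The Cd3g sequence held neither motif. The Cd3d sequence held 1 GAS match, at position -197 from the start, which overlapped a match to the ETS core (AGGAAG) on the other strand at -198.

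Cd3e gave 3, 1, 2 and 2 counts in the 4 sham libraries, and 139, 5, 67 and 27 counts in BCAS mice 1 to 4. The BCAS libraries were all higher, and they differed among themselves far more than the sham libraries did. Mean Cd3e was 0.117 ± 0.0442 CPM in sham and 2.86 ± 2.57 CPM in BCAS (SD, n = 4 each). Over the pooled counts the BCAS level was 25.5 times the sham level, with a 95% counting interval of 12.7 to 59.7. This interval, like every counting interval given here, is exact, rests on read numbers alone and leaves out the spread between mice. A small stretch of Cd3e, 3.31% of its exon length, overlaps exons of Gm48719 on the opposite strand, and the counting did not use strand.

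Cd3d gave 0, 1, 0 and 2 counts in the sham libraries and 102, 1, 55 and 10 in BCAS mice 1 to 4. BCAS mouse 2, with its single count, lay inside the sham range. Cd3g gave 1 count in the 4 sham libraries together, in sham mouse 4, and 147, 2, 65 and 27 counts in the BCAS libraries. The pooled ratio was 48.0 (counting interval 16.1 to 234.9) for Cd3d and 206 (36.7 to 8185) for Cd3g, the wide bounds reflecting the 3 and 1 sham counts. Exact two-sided permutation of the group labels over mean log2 CPM gave p = 0.0286 for Cd3e and Cd3g, the smallest value that the 70 arrangements of 4 against 4 mice allow, and p = 0.0857 for Cd3d. Here as below, 10 such tests were run, 1 per marker, and the p-values are unadjusted.

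The coreceptor Cd4 (chr6:124864692-124888221, minus strand) was the only marker with a clear level in sham cortex. The sham libraries held 36, 70, 32 and 34 Cd4 counts, whereas BCAS mice 1 to 4 held 335, 69, 180 and 94. The groups overlapped because sham mouse 2 had more Cd4 than the other sham mice, and slightly more than BCAS mouse 2. Mean Cd4 rose from 2.57 ± 1.20 CPM to 8.28 ± 5.03 CPM (SD, n = 4), a log2 fold change of 1.69 (SE 0.48) with an adjusted p of 0.0280 in edgeR's quasi-likelihood test over 17136 genes. The exact permutation test of the same gene gave p = 0.0571. The edgeR call for Cd4 was lost with limma-voom (adjusted p = 0.0540) and, with adjusted p between 0.0673 and 0.0791, when sham mouse 1, 3 or 4 or BCAS mouse 3 was left out. Microglial markers also rose in BCAS and were also lowest in BCAS mouse 2, as described below, but they did not follow Cd4 throughout. Cd4 was higher in BCAS mouse 3 than in mouse 4 (180 against 94 counts), whereas the microglial sum was slightly lower (1381 against 1468 CPM). CD4 protein is also made by some myeloid cells, so the cells that carried these counts cannot be told apart, and their source was not tested.

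Cd8a and Cd8b1 encode the alpha and beta chains of the CD8 coreceptor and lie on the plus strand of chromosome 6, at chr6:71373427-71379173 and chr6:71322788-71337494, with 35932 bases between them. Cd8a gave 1, 3, 0 and 2 counts in the sham libraries and 273, 14, 101 and 47 in BCAS mice 1 to 4. The lowest BCAS library thus exceeded the highest sham library. The mean was 0.0912 ± 0.0808 CPM in sham and 5.18 ± 4.94 CPM in BCAS (SD, n = 4), and the fitted log2 fold change was 5.77 (SE 1.04, edgeR adjusted p = 0.00617). That p carries no weight of its own, because Cd8a entered the fit only through its BCAS libraries. The pooled ratio was 62.1, with a counting interval of 28.3 to 170.

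Cd8b1 followed Cd8a in direction, with 0, 0, 1 and 1 counts in sham and 109, 9, 90 and 14 in BCAS. Its pooled ratio was 95.1 (counting interval 26.0 to 790), and the permutation p was 0.0286 for both Cd8a and Cd8b1 (exact, two-sided). The ratio of the coreceptor transcripts also differed. Per length of exon, Cd8a counts amounted to 0 to 0.0652 of Cd4 counts in the sham libraries, and to 0.903, 0.225, 0.622 and 0.554 in BCAS mice 1 to 4. All 4 BCAS ratios were above the sham ratios, and the lowest belonged to BCAS mouse 2. The sham ratios rest on 0 to 3 Cd8a counts per library over Cd4 counts that were already present in sham. They therefore do not measure the balance of CD4 and CD8 T cells.

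Cd2 (chr3:101275899-101287939, minus strand) encodes an adhesion molecule of T and NK cells that binds CD48 in the mouse. It gave 4, 1, 1 and 0 counts in sham and 97, 1, 43 and 12 in BCAS. BCAS mice 1, 3 and 4 were above every sham library, and BCAS mouse 2 was not. The pooled ratio was 21.8 (counting interval 9.81 to 60.4), and the exact permutation p of 0.114 was the highest of the 10 markers.

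Ms4a4b (chr19:11443553-11463549, plus strand) encodes a membrane protein of the MS4A family found on T cells. Sham libraries gave 2, 1, 5 and 3 counts, and BCAS mice 1 to 4 gave 593, 12, 246 and 61. The groups did not overlap, although BCAS mouse 2 and sham mouse 3 were close. Mean Ms4a4b was 0.161 ± 0.0966 CPM in sham and 10.8 ± 11.5 CPM in BCAS (SD, n = 4), with a log2 fold change of 6.01 (SE 1.20, edgeR adjusted p = 0.00877) and an exact permutation p of 0.0286. Ms4a4b too entered the fit only through its BCAS libraries, which limits that edgeR p in the same way, and its call was lost with limma-voom (log2 fold change 4.99, adjusted p = 0.0931).

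Nkg7 and Gzmb represent the cytotoxic machinery. Nkg7 encodes a granule membrane protein of NK and cytotoxic T cells, and Gzmb encodes granzyme B, a protease that triggers death of the target cell. Nkg7 lies at chr7:43437073-43438249 on the plus strand and Gzmb at chr14:56258838-56262260 on the minus strand. Their upstream sequences (RefSeq, GRCm38.p6) are shown because these were the only markers, of the 7 with a window, with a RUNX core match, RUNX factors being known regulators of cytotoxic genes. The windows are chr7:43436888-43437137 for Nkg7 and chr14:56262335-56262584 for Gzmb, with capitals as above.
Nkg7: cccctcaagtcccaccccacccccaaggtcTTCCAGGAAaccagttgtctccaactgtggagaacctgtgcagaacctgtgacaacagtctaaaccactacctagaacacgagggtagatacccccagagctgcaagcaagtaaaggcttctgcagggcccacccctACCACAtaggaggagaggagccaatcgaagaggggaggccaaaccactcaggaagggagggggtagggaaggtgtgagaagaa
Gzmb: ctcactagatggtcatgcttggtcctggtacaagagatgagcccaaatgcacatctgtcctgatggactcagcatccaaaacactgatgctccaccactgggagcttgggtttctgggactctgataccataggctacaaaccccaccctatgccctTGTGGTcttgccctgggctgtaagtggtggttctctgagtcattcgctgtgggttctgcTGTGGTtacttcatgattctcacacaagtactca
Nkg7 held a RUNX core on the reverse strand at position -83 and a GAS match at -220, and Gzmb held RUNX cores at -93 and -34. A GAS match of Gzmb lay at position 37, after the start and outside the printed bases.

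Nkg7 gave 1 count in the sham libraries together and 123, 3, 75 and 10 counts in BCAS mice 1 to 4. Gzmb gave 0, 0, 2 and 0 counts in sham and 55, 5, 60 and 18 in BCAS. For both genes every BCAS library lay above every sham library. The pooled ratio was 181 (counting interval 32.1 to 7170) for Nkg7 and 59.1 (16.1 to 493) for Gzmb, and the exact permutation p was 0.0286 for each.

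Promoter windows of 300 bases, from 250 before to 50 after the RefSeq start, were given for 7 of the 10 markers (Cd3e, Cd3d, Cd3g, Cd8a, Nkg7, Gzmb and Ms4a4b). The RUNX core was present in 2 of these 7 windows and in 16.8% of 32851 mouse windows, and the GAS motif in 3 of 7 (Cd3d, Nkg7 and Gzmb) against 8.3%. The ETS core was found in 3 of 7 windows against 35.4%, the E-box (CAGNTG) in 6 of 7 against 51.4%, and the TATA motif (TATAAA) in 1 of 7 against 13.6%. All motifs were searched on both strands. These are counts of letters in 7 windows and do not show binding.

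Only 3 of the 10 markers passed the expression filter of the genome-wide fit, which required about 0.558 CPM in at least 4 libraries. Cd4 passed it in both groups, and Cd8a and Ms4a4b passed only through their BCAS libraries. These 3 genes were called higher in BCAS (adjusted p below 0.05 and log2 fold change above 1), a call made for 11.0% of the 17136 genes tested, and since 2 of them could pass only by being high in BCAS, nothing was read from the count of 3. When genes were instead kept for a mean of at least 10 counts over the 8 libraries, all 10 markers entered the fit and all 10 were called higher, with edgeR adjusted p from 0.00660 (Cd8a) to 0.0288 (Cd2 and Cd4), while 11.66% of 17449 genes were called higher. Apart from Cd4, the markers reached that mean only through their BCAS libraries, with 1 to 11 counts over the 4 sham libraries, so nothing was read from the count of 10 either.

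The levels of the 10 markers were compared with each other per length, as CPM per kilobase of exon. In BCAS cortex the order of the group means ran from Nkg7 (2.78 ± 2.84), Cd4 (2.05 ± 1.25), Ms4a4b (2.05 ± 2.19) and Cd8b1 (1.83 ± 1.64) through Cd8a (1.43 ± 1.36), Gzmb (1.20 ± 0.942), Cd3d (1.11 ± 1.15) and Cd2 (1.05 ± 1.09) to Cd3g (0.883 ± 0.846) and Cd3e (0.702 ± 0.630), each as mean ± SD of 4 mice. Every step between neighbours in that order was smaller than the SD between mice of either gene. Within mice, Nkg7, Cd4, Ms4a4b, Cd8b1, Cd8a and Gzmb were each above Cd3e in all 4 BCAS mice. In sham cortex Cd4 stood at 0.638 CPM per kilobase and no other marker exceeded 0.0498.

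The BCAS animals themselves differed in a regular way. For 8 of the 10 markers the order from highest to lowest was BCAS mouse 1, 3, 4 and 2, and for Cd8b1 and Gzmb mice 3 and 1 changed places. All 10 markers were lowest in BCAS mouse 2. Set against the pooled sham counts, BCAS mice 1, 3 and 4 each had a counting interval entirely above 1 for all 10 genes, and BCAS mouse 2 for 5 of 10.

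**Figure D2:**
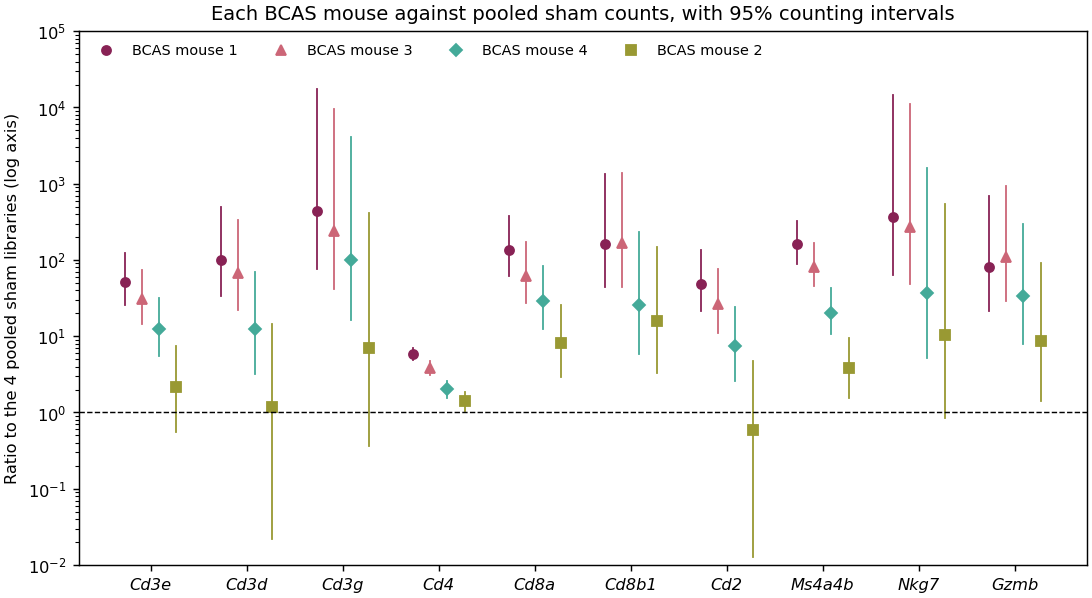
Ratio of each BCAS mouse to the 4 pooled sham libraries (y axis, logarithmic) for the 10 marker genes (x axis), with exact 95% counting intervals as vertical lines and the dashed line at a ratio of 1. The intervals of BCAS mouse 2 (squares) cross 1 for Cd3e, Cd3d, Cd3g, Cd2 and Nkg7, and no interval of BCAS mice 1, 3 and 4 does.

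In BCAS mouse 2 the 5 genes with an interval above 1 were Cd4 (1.40, interval 1.04 to 1.86), Cd8a (8.13, 2.94 to 25.8), Cd8b1 (15.7, 3.25 to 149), Gzmb (8.72, 1.43 to 91.5) and Ms4a4b (3.80, 1.54 to 9.51). The CD3 genes of that mouse gave 8 counts together, a depth at which a difference from sham was not detectable for any of the 3. Summed over the 9 markers other than Cd4, BCAS mouse 2 had 52 counts against 40 in the 4 sham libraries, a ratio of 4.53 (counting interval 2.94 to 7.02). The corresponding sums were 1638, 802 and 226 counts in BCAS mice 1, 3 and 4, and 7 to 12 counts in single sham mice. With BCAS mouse 2 left out, the log2 fold changes of the 3 markers of the genome-wide fit were 1.98 for Cd4, 6.16 for Cd8a and 6.43 for Ms4a4b, and with BCAS mouse 1 left out they were 1.29, 4.96 and 5.12. These values are a description and no test, since the mice left out were the lowest and, for most markers, the highest.

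Other cell types changed in the same libraries. Microglial markers (Cx3cr1, P2ry12, Tmem119, Csf1r, Aif1 and Sall1) summed to 248 to 301 CPM in sham and to 2690, 782, 1381 and 1468 CPM in BCAS mice 1 to 4. All 6 of 6 microglial markers were called higher, against 11.0% of all tested genes. Their rise was also weakest in BCAS mouse 2. The ratio between single mice differed between the 2 kinds of marker. The 9 lymphocyte markers without Cd4 were 3.52 times higher in mouse 3 than in mouse 4 (counting interval 3.03 to 4.10), whereas the microglial sum stood at 0.941 of mouse 4 (0.925 to 0.957). From mouse 3 to mouse 1 the microglial sum rose more, 1.95 times (1.92 to 1.98) against 1.66 times (1.53 to 1.81) for the 9 markers. These intervals compare the reads of single libraries. Each of the 10 markers was higher in mouse 3 than in mouse 4, by up to 7.44-fold (Nkg7) and least for Cd4.

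Relative to microglial transcripts, the 9 markers amounted to 1.45 to 2.77 CPM per 1000 microglial CPM in sham. They reached 26.8, 3.43, 31.4 and 8.39 per 1000 in BCAS mice 1 to 4. Mice 1, 3 and 4 were well above the sham range and mouse 2 was barely so. Relative to Ptprc (CD45), which is present on all leukocytes including microglia, the 3 CD3 genes gave 14.2 to 61.7 CPM per 1000 Ptprc CPM in sham, from 2 to 5 counts per library, and 72.9, 10.3, 78.4 and 42.5 in BCAS mice 1 to 4. On that scale the groups overlapped.

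**Figure D3:**
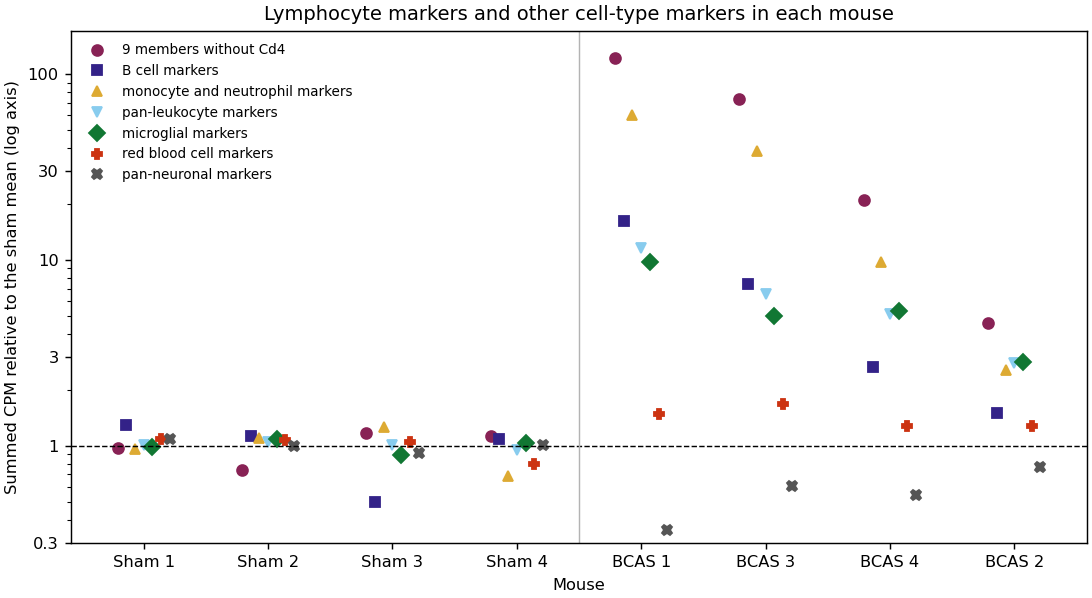
Summed CPM of each marker list relative to its sham mean (y axis, logarithmic) in each mouse (x axis, BCAS mice ordered 1, 3, 4, 2), with the dashed line at the sham mean. The 9 lymphocyte markers fall steeply from BCAS mouse 1 to mouse 2, while microglial markers are about equal in BCAS mice 3 and 4.

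B lymphocyte and plasma cell markers were present as well. Igkc, the kappa light chain constant region, gave 5 to 13 counts in sham and 5927, 22, 1954 and 195 in BCAS mice 1 to 4, and Jchain, which links secreted antibody, gave 5 to 11 counts in sham and 1990, 19, 620 and 68 in BCAS. The B cell list summed to 17.6 to 45.3 CPM in sham and to 568, 53.1, 260 and 93.4 CPM in BCAS, and all 5 tested genes of its 9 were called higher. The 9 monocyte and neutrophil markers summed to 0.965 to 1.77 CPM in sham and 84.8, 3.61, 54.4 and 13.8 CPM in BCAS, with both tested genes (Ccr2 and Ly6c2) higher. Among all tested genes 11.0% were called higher. Apart from Ighm, the tested genes of both lists passed the filter only through BCAS, so nothing was read from these calls. Among neutrophil genes, named after their values were seen, S100a9 gave 6, 1, 4 and 0 counts in sham and 92, 7, 98 and 16 in BCAS. S100a8 gave 1, 0, 6 and 5 and then 43, 5, 69 and 12, and Cxcr2 gave 2, 0, 0 and 2 and then 71, 0, 65 and 4. Retnlg gave 3, 1, 2 and 1 and then 12, 0, 7 and 5, and Mpo gave 0, 0, 4 and 1 and then 2, 1, 0 and 5. The groups overlapped for S100a8, Cxcr2, Retnlg and Mpo, and Ly6g was at 0 in all 8 libraries. The sums of the B cell list and of the monocyte and neutrophil list had the same order of BCAS mice as the sum of the T and NK markers. Their part in the marker values was not tested.

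Of 8 pan-leukocyte genes, 7 were called higher, against 11.0% of all tested genes. The list summed to 169 to 189 CPM in sham and 500 to 2074 CPM in BCAS. Dendritic cell markers summed to 38.2 to 43.6 CPM in sham and 87.6 to 235 CPM in BCAS. Of 8 tested genes, 4 were called higher (Siglech, Itgax, Clec9a and Ccr9), and of these all but Siglech passed the filter only through BCAS. In BCAS most of that sum came from Siglech and Itgax, which microglia can also express (means of 80.4 and 52.5 CPM). In sham they stood at 17.1 and 0.428 CPM, against 14.7 for Zbtb46 and 6.89 for Flt3. Zbtb46 and Flt3 had log2 fold changes of -0.43 and -0.14 and were not called (edgeR adjusted p of 0.0604 and 0.642). Named after their values were seen, Clec9a gave 4, 9, 14 and 5 counts in sham and 92, 15, 39 and 24 in BCAS. Ccr9 gave 12, 6, 3 and 1 and then 33, 19, 39 and 20, and Xcr1 gave 0, 0, 2 and 0 and then 46, 2, 20 and 7. Mast cell markers stayed at 0 to 1 count per sham library and reached 0 to 30 in BCAS, and none could be tested. Red blood cell genes, a measure of blood left in the tissue, summed to 59.3 to 80.8 CPM in sham and 94.5 to 124 CPM in BCAS, and 0 of 5 met both thresholds. Pan-neuronal genes, the defining markers of the tissue, summed to 7262 to 8590 CPM in sham and to 2799, 6098, 4776 and 4295 CPM in BCAS mice 1 to 4, with 1 of 6 (Snap25) called lower. Every BCAS mouse was below every sham mouse, mouse 1 the furthest and mouse 2 the least. Choroid plexus markers set sham mouse 3 apart at 769 CPM against 13.5 to 69.1 CPM in the other 7 libraries. Without that mouse the log2 fold changes were 1.56 for Cd4 (edgeR adjusted p = 0.0677), 5.36 for Cd8a (0.0209) and 6.43 for Ms4a4b (0.0256). The part of these cells in the marker values was not tested.

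The wider pathway was followed in 5 lists of T and NK genes and 1 list of their ligands, with 87 genes found in the tables, which were chosen with earlier results of these data known. Of these, 45 passed the filter, 31 were called higher in BCAS, 0 were called lower and 14 were not called, against the 11.0% of all tested genes called higher. The ligand list, whose genes many other cell types express, supplied 9 of the genes tested and 9 of those called. The median log2 fold change of the 45 was 2.89, and that of all tested genes was -0.0063. As with the markers, genes near 0 in sham passed the filter only through BCAS, so the counts describe the lists and do not test them. For the same reason Cd5, Pdcd1, Il2rb, Ccl5 and Ctsw, which reached the filter level of about 0.558 CPM in at most 1 sham library, are given below without a p-value.

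In the T cell receptor signalling list, 6 of 10 tested genes rose. The adaptor Fyb increased by 4.08 (log2, edgeR adjusted p = 0.00198) and the adaptor Lcp2 (SLP-76) by 3.48 (0.00259). Cd5, a brake on receptor signalling, gave 5, 1, 0 and 10 counts in sham and 177, 29, 70 and 33 in BCAS. Fyb and Lcp2 are also used by myeloid cells. The receptor chains were near 0 in sham and, by selection after their values were seen, are given as counts. Trac, the alpha constant region, gave 8, 3, 2 and 2 counts in sham and 248, 8, 115 and 33 in BCAS mice 1 to 4. Trbc1, a beta constant region, gave 0, 2, 0 and 0 counts in sham and 140, 5, 65 and 8 in BCAS.

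Trbc2, the other beta constant region, did not follow this pattern. It gave 203, 138, 90 and 196 counts in sham and 175, 77, 139 and 76 in BCAS, with a log2 fold change of -0.67 (edgeR adjusted p = 0.134). Trbc1 and Trbc2 are near-identical in their coding sequence, so their separate values are uncertain. What the Trbc2 counts of sham cortex rest on was not tested.

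All 10 tested genes of the costimulation, cytokine receptor and homing list were called higher, out of 21 found. The inhibitory receptor gene Pdcd1 (PD-1) gave 1 to 3 counts in sham and 201, 55, 126 and 86 in BCAS mice 1 to 4, a fitted log2 fold change of 5.54. Il2rb, a receptor chain for interleukins, gave 5 to 6 counts in sham and 282, 30, 225 and 64 in BCAS. Lag3 rose by 4.35 (log2, edgeR adjusted p = 0.00146) and Havcr2 (TIM-3) by 3.65 (0.00146). Itgal, the alpha chain of the leukocyte integrin LFA-1, rose by 3.62 (0.0124). Lag3 and Havcr2 had 60 to 144 counts in single sham libraries, where CD3 counts were near 0, and in BCAS mouse 4 Lag3 was higher than in mouse 3 (3055 against 2767 counts), unlike the 10 markers.

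Among cytotoxic effectors, 4 of 5 tested genes rose, out of 12 found. Ccl5, a chemokine of activated T and NK cells, gave 10, 1, 7 and 2 counts in sham and 478, 34, 191 and 102 in BCAS. Ctsw, a cathepsin of cytotoxic lymphocytes, gave 11, 0, 2 and 5 counts in sham and 236, 26, 100 and 39 in BCAS. Tnfsf10, the death ligand TRAIL, rose by 1.11 (log2, edgeR adjusted p = 0.0157). Perforin (Prf1), named after its values were seen, was at 0 in all sham libraries and gave 31, 3, 32 and 18 counts in BCAS mice 1 to 4. Interferon gamma (Ifng), also named afterwards, gave 0, 1, 0 and 0 counts in sham and 3, 1, 4 and 0 in BCAS, and 25.95% of its exon length is shared with another annotated gene, so that a difference was not detectable at this depth.

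NK receptor genes were mostly too low to test, with 1 of 13 passing the filter. That gene, Cd160, was not called (log2 fold change -0.92, edgeR adjusted p = 0.108). Klrk1 (NKG2D) gave 0, 1, 2 and 0 counts in sham and 117, 8, 64 and 10 in BCAS mice 1 to 4, and Klrd1 (CD94) gave 0, 2, 4 and 6 in sham and 99, 7, 46 and 15 in BCAS. Both receptors are shared by NK cells and cytotoxic T cells. Ncr1 (NKp46), which is more particular to NK cells and was named after its values were seen, gave 1 count in the sham libraries together and 33, 8, 19 and 8 in BCAS, so every BCAS library lay above every sham library. The list as a whole summed to 1.75 to 2.75 CPM in sham and to 23.4, 2.94, 15.8 and 5.23 CPM in BCAS.

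Only 2 of 10 tested lymphocyte transcription factors were called higher, Ikzf1 by 3.40 (log2, edgeR adjusted p = 0.00195) and Prdm1 by 1.75 (0.0190). Bcl11b, which cortical neurons also express, had a log2 fold change of -0.03 (0.922), and Zbtb7b, the helper-lineage factor ThPOK, had 0.76 (0.0398), below the fold threshold. Factors that failed the filter are named after their values were seen. Ikzf3 gave 2, 3, 1 and 2 counts in sham and 192, 9, 113 and 36 in BCAS. Runx3 gave 0, 0, 2 and 0 and then 137, 10, 60 and 26, and Gata3 gave 2, 0, 0 and 0 and then 27, 6, 8 and 7. For each of these genes every BCAS library lay above every sham library. Foxp3 of regulatory T cells gave 10, 7, 5 and 0 counts in sham and 14, 7, 12 and 7 in BCAS, with overlapping groups. Of its exon length, 31.53% is shared with other annotated genes. Eomes, tested but not called and also named afterwards, gave 1, 25, 3 and 212 counts in sham, most of them in sham mouse 4. In BCAS it gave 280, 3, 30 and 20.

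A ligand list of MHC genes, Cd48, Cd80 and Cd86 was called higher throughout, 9 of 9 genes. Cd80 and Cd86 are ligands of CD28 and CTLA-4, and the others belong to the ligands of the coreceptors and CD2. The class I genes that CD8 recognises were abundant, B2m rising by 3.54 (log2, edgeR adjusted p = 0.00181), H2-D1 by 3.75 (0.00195) and H2-K1 by 3.71 (0.00206). The class II gene H2-Aa, read by CD4 cells, rose by 4.68 (0.00924), with 3174, 123, 1628 and 496 counts in BCAS mice 1 to 4 and 19 to 89 in sham. Cd48, the partner of CD2, rose by 4.74 (0.00205). These genes are expressed by many cell types, and class I genes were strong in sham cortex as well.

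Outside these lists, tested genes were ranked by the closeness of their standardised log2 CPM pattern over the 8 libraries to a mean marker pattern. That mean was taken over the markers that passed the filter, Cd4, Cd8a and Ms4a4b, and held no CD3 gene. The 5 closest were F13a1, Fstl1, Lgals8, Colec12 and Pfn1, with root mean square distances of 0.0761 to 0.0863. F13a1 gave 56 to 70 counts in sham and 670, 135, 403 and 200 in BCAS mice 1 to 4. The 5 genes share the 1, 3, 4, 2 order of the BCAS mice with most of the markers, and their log2 fold changes were 0.85 to 2.21, since the measure of likeness ignores the size of a change.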

How the data were processed

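Total RNA of right cerebral cortex (1 mouse per library, 4 sham and 4 BCAS) was sequenced as paired reads. Per the labels, the methods and the file headers, the authors trimmed reads with Trim Galore, aligned them to mm10 with HISAT2, and counted exons per gene without strand. The deposited values were raw gene counts from featureCounts (2.0.1 with GENCODE vM20 in the header, 1.6.3 in the processing notes). No normalized or fold-change column was used. The whole table was fitted with edgeR 4.0.16 (TMM, filterByExpr, quasi-likelihood F-test, R 4.3.3), with Benjamini-Hochberg adjustment over all tested genes and calls at adjusted p below 0.05 and absolute log2 fold change above 1. DESeq2 1.42.0 and limma-voom (limma 3.58.1) were alternatives. Log2 CPM used a prior count of 2. Counting intervals are exact conditional binomial 95% intervals, which cover counting error only. The steps were tested on simulated data. Symbols were matched by gene ID, 54723 of 54752. The markers, the lists and the tests were chosen with earlier results of these data known. Named genes were the 10 markers, the 3 highest and up to 2 most changed called genes of each list with a mean of at least 20 counts, from which those most relevant to the markers are described, and the 5 genes most alike. Trgc1, Trgc2 and protein sequences were not analysed here, and some genes of the lists are not reported here and were left out of their sums and counts.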

Additional observations from a re-analysis of the deposited data

Results flagged for a closer look

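Among the 54 sets of 4 libraries examined with Dixon's ratio (gap of the extreme library to its neighbour, divided by the range), 9 exceeded the 95% critical value for 4 samples, where chance alone passes about 1 set in 20. All 9 were sham sets. Cd3g, Nkg7 and Gzmb each had a ratio of 1, because a single sham library held all the counts, 1, 1 and 2 counts respectively. Cd4 had a ratio of 0.913, with sham mouse 2 at 70 counts and the others at 32 to 36, and the sum of the 10 markers, which Cd4 dominates in sham, gave 0.913 as well. For the NK receptor sum the ratio was 0.919, sham mouse 2 again being high. The mast cell sum gave 0.911 and the red blood cell sum 0.856, with sham mouse 3 and sham mouse 4 as the low libraries. The choroid plexus sum gave 0.952, with sham mouse 3 at 769 CPM.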

How the results depend on the processing

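The 3 markers called higher in the full comparison became 10 without a filter and 10 under a minimum mean of 10 counts, because all 10 were then tested, and 1 with limma-voom (Cd8a, with adjusted p of 0.0540 for Cd4 and 0.0931 for Ms4a4b). Leaving out 1 mouse at a time gave 2 to 10. The highest value was reached without BCAS mouse 2 with the filter recomputed, an alternative added after the data were seen, and 6 to 8 were called when a sham mouse was left out in that way. The 31 companion genes became 60 without a filter, 51 under that minimum mean and 24 to 50 with 1 mouse left out, and 23 with limma-voom. The 2097 genes called in all became 5490 with no fold threshold. With replicate number as a block (replicate block), 2 markers, 26 companion genes and 1809 genes in all were called, Cd4 having an adjusted p of 0.0750. Same-numbered mice deviated from their group means with correlations of -0.103 to 0.00126. These values gave no sign that the numbers pair the animals, but so few mice cannot exclude it. The 7 non-overlapping markers stayed at 7 on library size alone and on raw counts. The fold changes of Cd4, Cd8a and Ms4a4b kept their direction in all alternatives run, 61 on the same side of the thresholds and 11 not. Depth limits the sham values, 9 of the 10 markers having at most 11 counts over the 4 sham libraries.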
